A study of Homo sapiens with 8 samples.

Results

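The aminoacyl-tRNA synthetases are the enzymes that join each amino acid to its own transfer RNA. They were taken as every gene whose symbol has the form of a synthetase symbol, from AARS1 to YARS2, and 38 of the 15597 genes listed met that rule. Of these, 21 were cytosolic and 17, the genes whose names end in 2, were mitochondrial. RNA was sequenced from SUDHL-4, a long-established human cell line derived from a germinal-centre diffuse large B-cell lymphoma. Control cells, labelled as wild type, and cells made to overexpress FDX1 (FDX1-OE) were kept for 48 h with either DMSO, the solvent, or elesclomol (ES) at 5 nM. Each of the 4 groups had 2 libraries, which the labels do not say came from separate cultures. The labels used here do not say whether the FDX1-OE cells were 1 clone or a pool, or which promoter drove FDX1.

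A synthetase first activates its amino acid with ATP and then transfers it to the matching tRNA, so the whole family is needed for translation in every cell. The nucleus encodes separate sets of enzymes for the cytosol and for the mitochondrion, where they serve the few proteins made from mitochondrial DNA. GARS1 and KARS1 serve both compartments, and mitochondrial glutaminyl-tRNA is made by EARS2 followed by an amidotransferase, so the mitochondrial set has no separate gene for glycine, lysine or glutamine. Elesclomol carries copper into the cell. FDX1 is a mitochondrial ferredoxin, a protein that passes on electrons, and it can reduce the copper that elesclomol delivers.

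With elesclomol, most of the cytosolic synthetases that changed fell, and WARS1, the tryptophanyl-tRNA synthetase, rose. WARS1 was 1.59-fold higher with ES in control cells and 2.43-fold higher in FDX1-OE cells. FARSA, VARS1, EPRS1, HARS1, NARS1 and QARS1 fell in both. The mitochondrial synthetases changed in both directions: SARS2, HARS2 and WARS2 were among those that rose, and MARS2, YARS2 and IARS2 fell. In control cells SARS2 and HARS2 did not pass when the libraries were rescaled. WARS2, IARS2 and NARS1 did not pass there without some single libraries. Without ES, no synthetase differed between FDX1-OE and control cells at the threshold. Changes are log2 differences on FPKM + 1 (FPKM are reads scaled by gene length and library total), tested with limma. Folds are these changes taken off the log2 scale. A gene passed at a Benjamini-Hochberg adjusted p below 0.05 over the 9805 genes that reached 1 FPKM in 2 or more libraries.

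The totals recovered from the FPKM values were 33435438 to 35883528 reads per library. Of each total 99.9% lay in the listed genes, so it need not equal the sequencing depth. FDX1 itself stood at 22.2 to 25.6 FPKM in control DMSO and 69.9 to 72.4 in FDX1-OE DMSO. With ES it stood at 21.3 and 21.4 in control cells and 82.5 to 84.8 in FDX1-OE cells, so every FDX1-OE library lay above every control library. All 8 B-cell markers reached 1 FPKM, with a summed level of 1442 to 1793 FPKM per library. The 4 T-cell and NK-cell markers listed summed to 4.10 to 8.47 FPKM, and the epithelial and stromal markers to 0.287 to 1.79 FPKM. The 6 myeloid markers summed to 4.03 to 4.30 FPKM in control DMSO, 7.07 to 8.18 in FDX1-OE DMSO, 12.3 to 16.5 in control ES and 36.7 to 39.7 in FDX1-OE ES. CD68 and FCER1G carried that sum, while CD14, LYZ, CSF1R and ITGAM, which define the lineage, had group means of 0.190 FPKM or less. In bulk RNA, fewer cells of a kind and less RNA per cell cannot be told apart.

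In untreated cells the cytosolic genes were the more abundant. The 21 cytosolic genes summed to 1581 FPKM ± 14.8 (SD, n = 2) in control DMSO and the 17 mitochondrial genes to 260.1 FPKM ± 2.34. GARS1, the glycyl-tRNA synthetase, was the highest, at 200.1 and 195.2 FPKM, and KARS1 followed at 146.7 and 144.2 FPKM. MARS1 and FARSA came next, with means of 141.6 FPKM ± 2.34 and 139.3 FPKM ± 3.05 (SD, n = 2), and the libraries of those genes overlapped while KARS1 lay above both. The highest mitochondrial gene was IARS2, the isoleucyl enzyme, at 44.6 and 39.4 FPKM, and the lowest was FARS2, the phenylalanyl enzyme, at 1.82 and 1.60 FPKM.

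The lowest synthetase in all was TARS3, a cytosolic relative of the threonyl enzyme TARS1. It had 0.474 and 0.567 FPKM in control DMSO, 0.541 and 0.493 in FDX1-OE DMSO, 0.581 and 0.700 in control ES, and 0.874 and 1.35 in FDX1-OE ES. Both FDX1-OE ES libraries were the highest, but 1 library alone reached 1 FPKM, so TARS3 was the single synthetase not tested. It rested on at least 77 reads in each library.

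In 17 of the 18 pairs of a cytosolic and a mitochondrial enzyme for the same amino acid, the cytosolic gene had the higher FPKM in control DMSO. The median ratio was 5.01 and the highest was 81.5, for FARSA against FARS2. Cysteine was the exception: CARS1 had 14.2 and 13.7 FPKM and CARS2 had 18.6 and 20.4 FPKM, a ratio of 0.716.

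**Figure D1:**
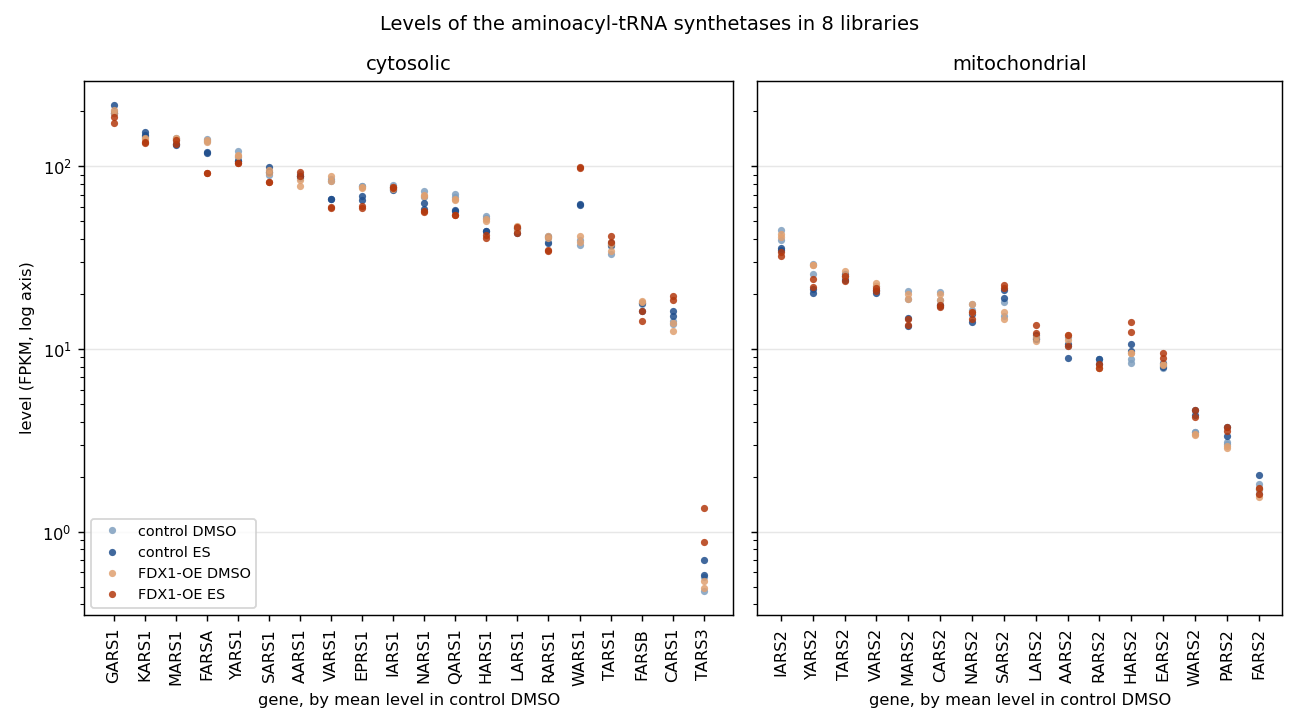
Level of the synthetases in FPKM on a log axis, with 1 point for each of the 8 libraries, colours for the 4 groups, and genes ordered by mean level in control DMSO. GARS1 and IARS2 head the cytosolic and the mitochondrial panels, TARS3 lies apart at the bottom, and the ES libraries of WARS1 stand above its DMSO libraries.

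In every ES library the sum of each compartment was lower than in the DMSO libraries of the same cells. The cytosolic sum was 1525 FPKM ± 25.9 in control ES against 1581 FPKM ± 14.8 in control DMSO, and 1463 FPKM ± 11.8 in FDX1-OE ES against 1571 FPKM ± 1.54 in FDX1-OE DMSO. The mitochondrial sum was 243.7 FPKM ± 7.38 in control ES, 260.4 FPKM ± 3.89 in FDX1-OE DMSO and 251.3 FPKM ± 0.413 in FDX1-OE ES (SD, n = 2 throughout). The cytosolic sum was 5.78 to 6.47 times the mitochondrial sum over the 8 libraries. With 2 libraries in a group these sums were not tested: an exact two-sided permutation test of 2 against 2 cannot go below p = 0.333.

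In control cells, ES was followed by a rise of 1 and a fall of 6 of the 20 cytosolic synthetases tested, and by a rise of 4 and a fall of 3 of the 17 mitochondrial ones. Of all genes tested, 38.4% passed in this comparison, 25.5% higher and 12.9% lower, so the 35.0% of cytosolic and 41.2% of mitochondrial genes that passed lie near the background. The median change was -0.02 over the cytosolic genes, 0.01 over the mitochondrial genes and 0.06 over all genes tested.

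In FDX1-OE cells, 3 of 20 cytosolic synthetases rose and 11 fell, and 5 of 17 mitochondrial ones rose and 3 fell. That is 14 of 20 and 8 of 17, beside 56.2% of all genes tested, 37.0% higher and 19.2% lower. The median change was -0.15 for the cytosolic genes, 0.02 for the mitochondrial genes and 0.09 for all genes. The members that passed in both cell types numbered 14, 7 in each compartment, each with 1 direction in the pair of comparisons. A further 8 passed in FDX1-OE cells, 15 passed in neither, and 0 passed in control cells alone. Of all 9805 genes, 3767 passed in control cells and 5510 in FDX1-OE cells. How those calls overlap was not counted, so the overlap among the synthetases has no background beside it. That a gene passed in FDX1-OE cells and not in control cells does not show that the responses differed, which was tested separately.

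These splits depend on the scaling between libraries. When the libraries were rescaled by the median ratio of the genes tested (RLE scaling), the median change of all genes went from 0.06 to 0.00 in control cells and from 0.09 to 0.01 in FDX1-OE cells. The split over all genes then went from 2498 higher and 1269 lower to 1856 and 1888 in control cells, and from 3632 and 1878 to 2702 and 2710 in FDX1-OE cells. The cytosolic counts became 1 higher and 8 lower in control cells and 2 higher and 13 lower in FDX1-OE cells. The mitochondrial counts became 1 higher and 5 lower, and 3 higher and 7 lower, and the mitochondrial medians turned to -0.06 and -0.07.

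**Figure D2:**
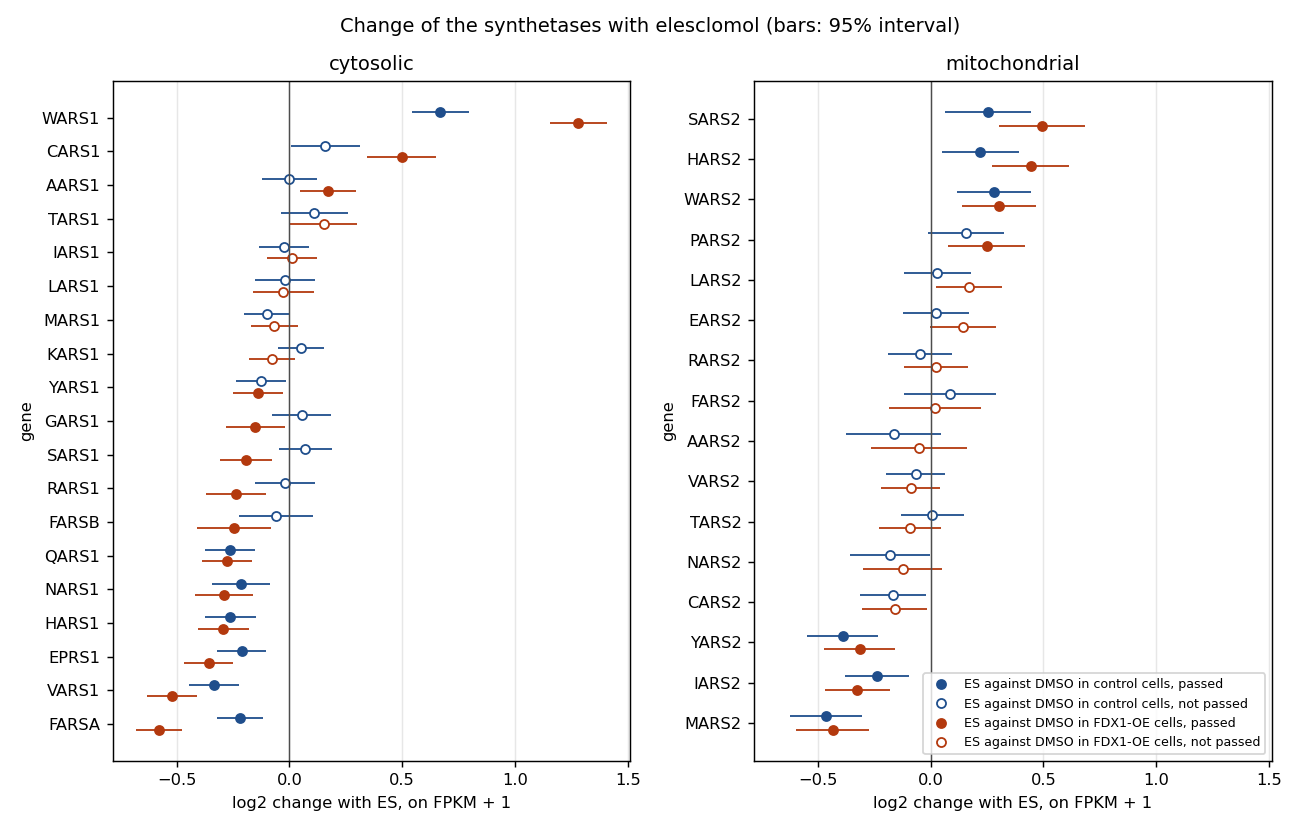
Log2 change of the tested synthetases with ES in control cells (blue) and in FDX1-OE cells (red), on FPKM + 1, with bars for the 95% interval of the limma fit and filled points for genes that passed. WARS1 lies farthest to the right, at 0.67 and 1.28, and FARSA, VARS1 and MARS2 lie farthest to the left.

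WARS1 had 39.7 and 37.1 FPKM in control DMSO and 38.6 and 41.5 in FDX1-OE DMSO. With ES it had 61.1 and 62.0 FPKM in control cells and 99.7 and 97.7 in FDX1-OE cells. The DMSO libraries of the 2 cell types overlapped, both control ES libraries lay above all of them, and both FDX1-OE ES libraries lay above the control ES libraries. The log2 change was 0.67 (SE 0.06, adjusted p = 2.32e-05) in control cells and 1.28 (SE 0.06, adjusted p = 1.62e-07) in FDX1-OE cells. WARS1, which is also known as an interferon-induced gene, shares 6.41% of its exon bases with WDR25 and has 1 named pseudogene, so some of its reads could have been assigned elsewhere.

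CARS1, the cysteinyl enzyme, had 14.2 and 13.7 FPKM in control DMSO, 12.5 and 13.9 in FDX1-OE DMSO, 16.2 and 15.2 in control ES, and 19.6 and 18.5 in FDX1-OE ES. The ES libraries lay above the DMSO libraries in both cell types, and those of FDX1-OE cells were the highest. The log2 change was 0.50 (1.41-fold, SE 0.07, adjusted p = 0.00015) in FDX1-OE cells, and 0.16 in control cells, where it missed the threshold (adjusted p = 0.0892). AARS1, the alanyl enzyme and the third cytosolic gene to rise in FDX1-OE cells, had 83.8 and 77.7 FPKM in DMSO and 93.5 and 88.5 in ES. In control cells it had 86.6 and 90.7 FPKM in DMSO and 89.0 and 88.3 in ES. AARS1 was thus lowest in the FDX1-OE DMSO libraries, and its FDX1-OE ES libraries overlapped those of control cells. Its rise of 0.17 (adjusted p = 0.0228) was lost with RLE scaling (adjusted p = 0.312), without FDX1-OE DMSO replicate 2 (0.190) and without FDX1-OE ES replicate 1 (0.133).

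FARSA and FARSB encode the α and β subunits of the cytosolic phenylalanyl-tRNA synthetase. FARSA had 137.1 and 141.4 FPKM in control DMSO, 138.9 and 136.3 in FDX1-OE DMSO, 120.2 and 118.5 in control ES, and 92.5 and 91.4 in FDX1-OE ES. The groups other than the DMSO pair did not overlap, and FDX1-OE ES was the lowest. The log2 change was -0.22 (0.858-fold, SE 0.05, adjusted p = 0.00408) in control cells and -0.58 (0.671-fold, SE 0.05, adjusted p = 4.56e-06) in FDX1-OE cells. FARSB, at 18.3 and 18.1 FPKM in FDX1-OE DMSO and 14.2 and 16.2 in FDX1-OE ES, changed by -0.25 (adjusted p = 0.0156), a call lost without FDX1-OE ES replicate 1 (0.138) and without FDX1-OE DMSO replicate 1 (0.0662) or 2 (0.0531). In control cells FARSB did not pass.

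VARS1, the valyl enzyme, had 82.9 and 85.3 FPKM in control DMSO, 88.1 and 83.4 in FDX1-OE DMSO, 66.7 and 66.3 in control ES, and 59.8 and 59.2 in FDX1-OE ES. All ES libraries lay below all DMSO libraries. It fell by 0.33 on the log2 scale in control cells (0.793-fold, adjusted p = 0.000695) and by 0.52 in FDX1-OE cells (0.698-fold, adjusted p = 1.51e-05). EPRS1, a single protein that charges both glutamate and proline, had 78.3 and 77.6 FPKM in control DMSO, 77.4 and 76.6 in FDX1-OE DMSO, 65.7 and 68.8 in control ES, and 59.3 and 60.5 in FDX1-OE ES. It fell to 0.864-fold in control cells (adjusted p = 0.00707) and to 0.781-fold in FDX1-OE cells (adjusted p = 0.000143), again with no overlap of ES and DMSO.

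QARS1, the glutaminyl enzyme, had 67.5 and 71.0 FPKM in control DMSO, 66.2 and 65.8 in FDX1-OE DMSO, 57.2 and 57.8 in control ES, and 54.3 and 54.4 in FDX1-OE ES. Every ES library lay below every DMSO library. The change was -0.26 (adjusted p = 0.00231) in control cells and -0.28 (adjusted p = 0.000824) in FDX1-OE cells. NARS1, the asparaginyl enzyme, fell to 0.863-fold (adjusted p = 0.0152) in control cells, a call lost without control DMSO replicate 1 (0.118) or control ES replicate 1 (0.104), and to 0.818-fold (adjusted p = 0.00168) in FDX1-OE cells.

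SARS1, the seryl enzyme, had 90.04 and 92.7 FPKM in control DMSO, 95.5 and 92.4 in FDX1-OE DMSO, 92.7 and 99.5 in control ES, and 81.8 and 82.3 in FDX1-OE ES. The FDX1-OE ES libraries were the lowest, and the other 3 groups overlapped. The change was -0.19 (adjusted p = 0.00937) in FDX1-OE cells, lost without FDX1-OE DMSO replicate 1 (0.0740), and 0.07 (adjusted p = 0.304) in control cells. GARS1 had 195.3 and 215.8 FPKM in control ES, 196.6 and 202.9 in FDX1-OE DMSO, and 173.4 and 186.5 in FDX1-OE ES, which was the lowest group. Its change of -0.15 in FDX1-OE cells passed narrowly (adjusted p = 0.0492), and 5 of the 8 fits that left out 1 library lost it: without FDX1-OE ES replicate 1 (0.263), FDX1-OE DMSO replicate 2 (0.203) or 1 (0.0960), and control DMSO replicate 1 or 2 (0.0627 each).

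The other cytosolic genes to fall in FDX1-OE cells were RARS1 (arginyl; -0.24, adjusted p = 0.00648) and YARS1 (tyrosyl; -0.14, adjusted p = 0.0352). The YARS1 call was lost without any 1 of the 4 FDX1-OE libraries, the adjusted p being 0.107 and 0.144 without DMSO replicates 1 and 2 and 0.101 and 0.0921 without ES replicates 1 and 2. IARS1, KARS1, LARS1, MARS1 and TARS1 passed in neither cell type, and their changes in FDX1-OE cells lay between -0.08 (KARS1) and 0.15 (TARS1).

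Among the mitochondrial enzymes that rose, SARS2, the seryl enzyme, had 15.2 and 18.1 FPKM in control DMSO, 16.0 and 14.7 in FDX1-OE DMSO, 21.1 and 18.9 in control ES, and 21.5 and 22.4 in FDX1-OE ES. ES libraries lay above DMSO libraries in both cell types. The change was 0.25 (SE 0.09, adjusted p = 0.0382) in control cells and 0.49 (1.41-fold, SE 0.09, adjusted p = 0.000695) in FDX1-OE cells. SARS2 is the least certain gene to count: 67.4% of its exon bases lie in a read-through gene on the same strand and 15.8% in MRPS12 on the other strand, and whether reads were counted by strand is not given in the sources used here.

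HARS2, the histidyl enzyme, had 8.84 and 8.38 FPKM in control DMSO, 9.46 and 9.49 in FDX1-OE DMSO, 10.7 and 9.72 in control ES, and 14.1 and 12.4 in FDX1-OE ES. Both FDX1-OE ES libraries stood above the other 6. The change was 0.22 (SE 0.08, adjusted p = 0.0436) in control cells and 0.44 (1.36-fold, SE 0.08, adjusted p = 0.000682) in FDX1-OE cells. Its cytosolic partner HARS1 moved the other way: it had 53.8 and 52.5 FPKM in control DMSO, 50.3 and 51.3 in FDX1-OE DMSO, 44.2 and 44.1 in control ES, and 42.3 and 40.4 in FDX1-OE ES. HARS1 fell to 0.834-fold (adjusted p = 0.00281) and 0.817-fold (adjusted p = 0.00071), with every ES library below every DMSO library.

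These 2 genes lie head to head on chromosome 5. Which starts were used was not measured. The stretch from the HARS1 start to the HARS2 start is shown because both genes are transcribed away from it. It covers 86 bases at chr5:140691370-140691455 of GRCh38.p14, plus strand, from RefSeq, with the start base of each gene in capitals (HARS1 at the left, on the minus strand, and HARS2 at the right). The 2 starts are 85 bases apart.
HARS1 to HARS2: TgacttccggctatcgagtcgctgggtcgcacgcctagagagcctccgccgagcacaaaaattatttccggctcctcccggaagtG
The exons of the pair overlap on opposite strands, by 14.2% of the exon bases of HARS2 and 9.50% of those of HARS1, so without strand some reads could have gone to either gene.

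WARS2, the mitochondrial tryptophanyl enzyme, had 3.52 and 3.497 FPKM in control DMSO, 3.38 and 3.42 in FDX1-OE DMSO, 4.64 and 4.34 in control ES, and 4.61 and 4.26 in FDX1-OE ES. The ES libraries of the 2 cell types overlapped and lay above all DMSO libraries, with changes of 0.28 (adjusted p = 0.0129) and 0.30 (adjusted p = 0.00538). PARS2, the prolyl enzyme, had 3.10 and 3.04 FPKM in control DMSO, 2.88 and 2.93 in FDX1-OE DMSO, 3.36 and 3.73 in control ES, and 3.72 and 3.56 in FDX1-OE ES. Its change passed in FDX1-OE cells (0.25, adjusted p = 0.0179) and missed in control cells (0.16, adjusted p = 0.131).

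The rises of SARS2, HARS2 and WARS2 in control cells were not called in every fit. Over all fits the log2 change stayed between 0.14 and 0.37 for SARS2, 0.16 and 0.28 for HARS2, and 0.23 and 0.35 for WARS2. Without control DMSO replicate 1 the adjusted p was 0.282 for SARS2, 0.0820 for HARS2 and 0.0515 for WARS2, and without control ES replicate 1 it was 0.212, 0.225 and 0.0776. HARS2 also missed without control DMSO replicate 2 (0.182) and either FDX1-OE DMSO library (0.0571), and WARS2 without control DMSO replicate 2 (0.0549). With RLE scaling the adjusted p was 0.105 for SARS2 and 0.128 for HARS2, without a filter on low values 0.124 and 0.101, and with voom weights 0.0700 for HARS2. In FDX1-OE cells the rises of SARS2, HARS2 and WARS2 passed in every one of these fits. PARS2 missed without FDX1-OE DMSO replicate 1 (0.0795) or 2 (0.0597), without FDX1-OE ES replicate 1 (0.0870), with RLE scaling (0.0823) and with voom weights (0.0856).

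Of the mitochondrial enzymes that fell, MARS2, the methionyl enzyme, had 20.8 and 18.8 FPKM in control DMSO, 18.8 and 19.9 in FDX1-OE DMSO, 13.4 and 14.7 in control ES, and 14.6 and 13.6 in FDX1-OE ES. All ES libraries lay below all DMSO libraries, and the ES libraries of the 2 cell types overlapped. The change was -0.46 (0.725-fold, SE 0.07, adjusted p = 0.000859) in control cells, the largest fall of any synthetase there, and -0.43 (0.740-fold, SE 0.07, adjusted p = 0.000537) in FDX1-OE cells. YARS2, the tyrosyl enzyme, had 29.2 and 25.9 FPKM in control DMSO, 28.8 and 28.96 in FDX1-OE DMSO, 21.3 and 20.2 in control ES, and 22.0 and 24.2 in FDX1-OE ES, and it fell to 0.764-fold (adjusted p = 0.00203) and 0.804-fold (adjusted p = 0.00349).

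IARS2 fell to 0.848-fold (adjusted p = 0.0154) in control cells, a call lost without control DMSO replicate 1 (0.129) or control ES replicate 2 (0.0677), and to 0.798-fold (adjusted p = 0.00163) in FDX1-OE cells. AARS2, CARS2, EARS2, FARS2, LARS2, NARS2, RARS2, TARS2 and VARS2 passed in neither cell type. Their changes in FDX1-OE cells ran from -0.16 (CARS2) to 0.17 (LARS2, adjusted p = 0.0507).

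**Figure D3:**
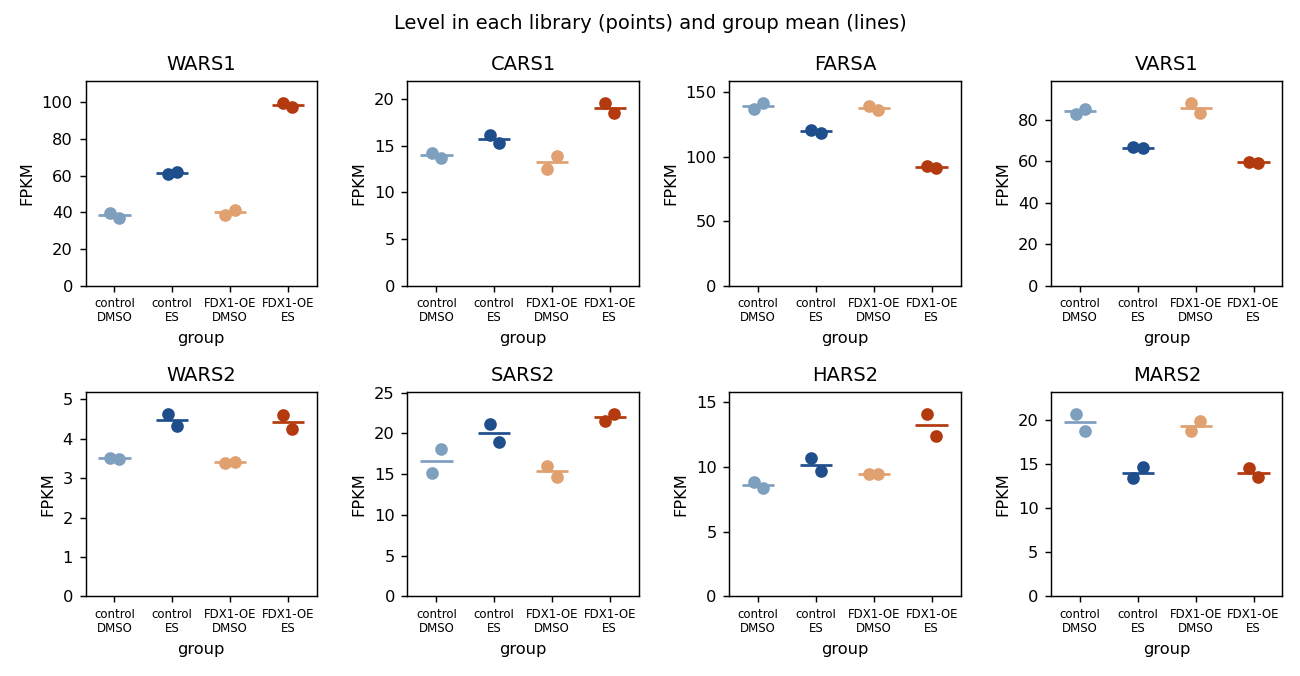
FPKM of 8 synthetases in each library (points) with group means (lines), by group, each axis starting at 0. WARS1 and CARS1 are highest and FARSA and VARS1 lowest in the FDX1-OE ES libraries, while WARS2 and MARS2 stand at like levels in the ES libraries of both cell types.

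Set against each other by amino acid, the cytosolic change with ES was above the mitochondrial change in 8 of 18 pairs and below it in 10 in control cells, with a median difference of -0.04. In FDX1-OE cells it was above in 7 and below in 11, with a median difference of -0.20 and a range from -0.73 for HARS1 and HARS2 to 0.98 for WARS1 and WARS2. Tryptophan was the only amino acid for which the enzymes of both compartments rose in both cell types. For histidine the enzymes of both compartments passed in opposite directions in both cell types, and for serine and proline (EPRS1 and PARS2) they did so in FDX1-OE cells. These are descriptions of fitted values: the difference within a pair was not tested.

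**Figure D4:**
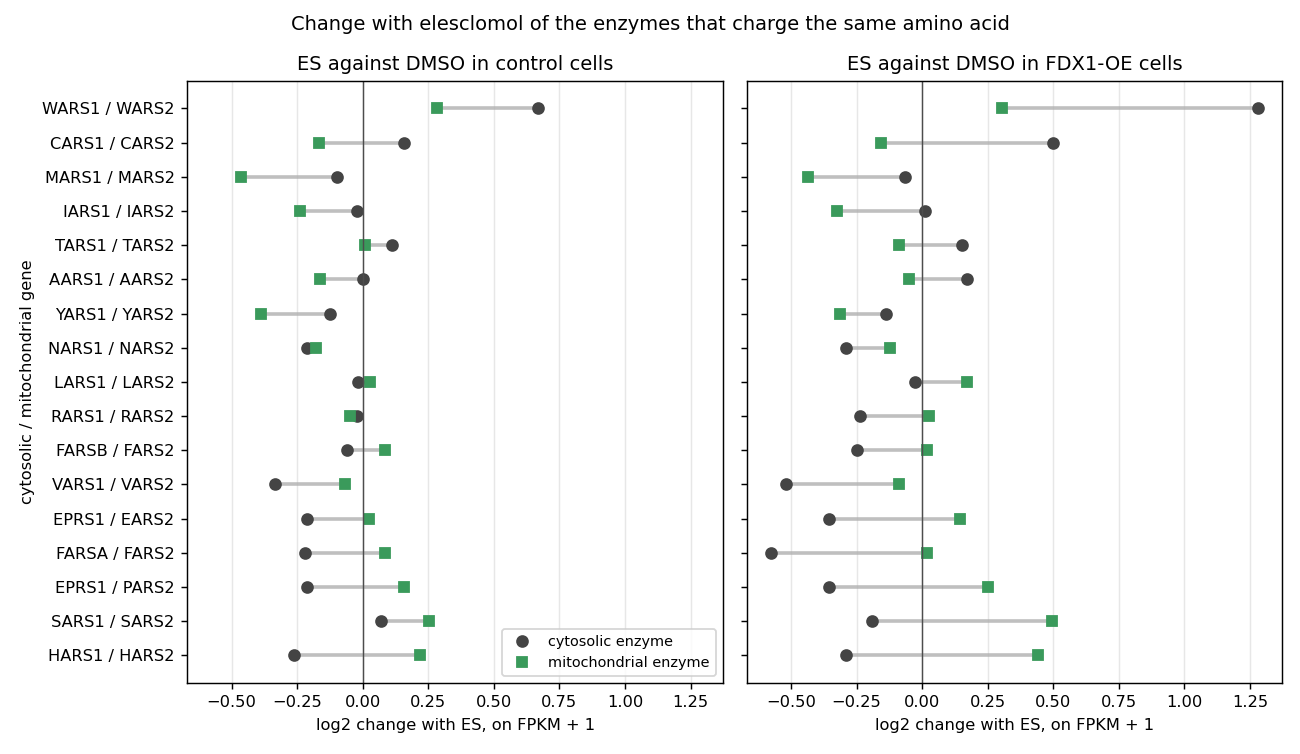
Log2 change with ES, on FPKM + 1, of the cytosolic (circle) and the mitochondrial (square) enzyme for the same amino acid, in control cells (left) and FDX1-OE cells (right), joined by a line and ordered by the difference in FDX1-OE cells. Tryptophan at the top has the cytosolic gene far to the right, and histidine at the bottom has the cytosolic gene to the left of the mitochondrial one.

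Several cytosolic synthetases are held together in the multisynthetase complex. Of its 8 members tested here, 0 rose and 2 fell with ES in control cells (EPRS1 and QARS1), and 0 rose and 3 fell in FDX1-OE cells (RARS1 in addition). Of the 12 cytosolic genes outside the complex, 1 rose and 4 fell in control cells, and 3 rose and 8 fell in FDX1-OE cells. By the fold of the catalytic domain, 3 of 18 class I genes rose and 7 fell in FDX1-OE cells, and 5 of 18 class II genes rose and 6 fell. EPRS1, which joins a class I and a class II enzyme, was counted in neither class. Passing were 25.0% of the complex in control cells and 37.5% in FDX1-OE cells, and 41.7% and 91.7% of the cytosolic genes outside it. In FDX1-OE cells 55.6% of class I and 61.1% of class II passed. Of all genes 38.4% passed in control cells (25.5% higher, 12.9% lower) and 56.2% in FDX1-OE cells (37.0% higher, 19.2% lower). With RLE scaling the counts in FDX1-OE cells became 0 higher and 5 lower for the complex and 2 and 8 for the cytosolic genes outside it. They became 3 and 10 for class I, and 2 and 9 for class II.

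ATF4 is a transcription factor of the amino acid response, and several cytosolic synthetases are often listed among its targets. Of 10 such genes, 1 rose and 2 fell in control cells, and 3 rose and 4 fell in FDX1-OE cells with a median change of -0.03. Of the other 10 cytosolic genes, 0 rose and 4 fell in control cells, and 0 rose and 7 fell in FDX1-OE cells with a median of -0.24. In each set 7 of 10 passed in FDX1-OE cells, beside 56.2% of all genes, and in control cells 3 and 4 of 10, beside 38.4%. With RLE scaling the listed targets had 2 higher and 5 lower in FDX1-OE cells with a median of -0.13, and the others 0 higher and 8 lower with a median of -0.34. ATF4 itself had 64.4 and 66.1 FPKM in control DMSO, 72.3 and 67.4 in FDX1-OE DMSO, 85.2 and 81.0 in control ES, and 80.7 and 84.1 in FDX1-OE ES. It was 1.27-fold higher with ES in control cells (adjusted p = 0.000979) and 1.18-fold higher in FDX1-OE cells (adjusted p = 0.00424), and no ES library overlapped a DMSO library.

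The promoters were read for the element that ATF4 and C/EBP proteins bind, since the listed targets were chosen from general knowledge and not from sequence. Promoter windows of 250 bases before to 50 after the start came from RefSeq (GRCh38.p14) and matched 30 of the 38 genes, 16 cytosolic and 14 mitochondrial. These genes had 39 windows, and the one listed first was read for each. AARS2, LARS1, TARS3, VARS1, VARS2 and YARS1 were among those with no window. The letters TGATGNAA, on either strand, were in 3.62% of all 35116 windows and in those of 7 synthetases: 6 cytosolic genes (AARS1, CARS1, IARS1, MARS1, NARS1 and TARS1) and 1 mitochondrial gene (YARS2). Stretches of 30 bases around each match are shown in the direction of the gene, so that the shared letters can be seen, with the match in capitals.
AARS1, chr16:70289675-70289704, minus strand: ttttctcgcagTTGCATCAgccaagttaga
CARS1, chr11:3057407-3057436, minus strand: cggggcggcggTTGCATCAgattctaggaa
IARS1, chr9:92293692-92293721, minus strand: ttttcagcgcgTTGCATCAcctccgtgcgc
MARS1, chr12:57488053-57488082, plus strand: gccggttccggTTGCATCAgcgagggattc
TARS1, chr5:33440956-33440985, plus strand: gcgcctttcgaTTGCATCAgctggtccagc
NARS1, chr18:57621804-57621833, minus strand: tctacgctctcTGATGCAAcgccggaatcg
YARS2, chr12:32756076-32756105, minus strand: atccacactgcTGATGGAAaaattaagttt

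The 6 cytosolic genes all held TGATGCAA, which reads TTGCATCA on the other strand, and YARS2 held TGATGGAA. The first base of the match lay 2 bases before the start in CARS1, 4 in MARS1, 13 in IARS1 and 187 in AARS1, and 2 and 14 bases after it in TARS1 and NARS1. In FDX1-OE cells with ES, 2 of these 6 cytosolic genes rose (CARS1 and AARS1) and 1 fell (NARS1), with a median change of 0.08, where 37.0% of all genes rose and 19.2% fell. With RLE scaling 1 rose and 2 fell and the median turned to -0.02. Of the 10 tested cytosolic genes with a window and no match, 1 rose (WARS1) and 8 fell, with a median of -0.24, and with RLE scaling 1 rose and 9 fell. Over all 9805 genes RLE scaling gave 2702 higher and 2710 lower in FDX1-OE cells. In control cells 0 rose and 1 fell with a match, and 1 rose and 4 fell without, where 25.5% of all genes rose and 12.9% fell. A match is a string of letters and not a known site, and the split was chosen with earlier results known.

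The window read for WARS1, at chr14:100376278-100376577 on the minus strand, held no TGATGNAA, and none of the other 3 motifs searched on both strands. These were the interferon-stimulated response element (3.57% of all windows, and EARS2 alone among the synthetases), the gamma-activated site TTCNNNGAA (7.66%, and CARS1, TARS1, PARS2 and WARS2) and the E-box CACGTG (7.26%, and IARS1, CARS2, EARS2 and MARS2). No matches of different motifs overlapped in a synthetase window. The search says only that those letters are not in these windows.

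Without ES, no synthetase was shown to differ between FDX1-OE and control cells. In DMSO 0 of 20 cytosolic and 0 of 17 mitochondrial genes passed with limma, where 0.51% of all genes did, 0.428% higher and 0.0816% lower, and the changes lay between -0.15 (RARS2) and 0.12 (HARS2). At an unadjusted limma p below 0.05 there was 1 gene in each compartment, AARS1 and RARS2, beside 711 of all 9805 genes. Limma with voom weights on the recovered reads called 0 in both compartments.

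With ES, FDX1-OE cells differed from control cells in 2 cytosolic genes that were higher and 7 that were lower of 20, and in 1 mitochondrial gene that was higher of 17. Of all genes tested, 21.4% passed, 13.6% higher and 7.78% lower. This comparison shares its ES libraries with those above. WARS1 was 1.59-fold higher (log2 0.67, adjusted p = 5.66e-05), HARS2 1.27-fold higher (0.35, adjusted p = 0.0106) and CARS1 1.20-fold higher (0.26, adjusted p = 0.0223). FARSA was 0.772-fold (-0.37, adjusted p = 0.000581) and SARS1 0.856-fold (-0.22, adjusted p = 0.0133). EPRS1, GARS1, KARS1, RARS1 and VARS1 were lower by smaller amounts, from -0.16 to -0.19, with adjusted p between 0.0360 and 0.0488.

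The calls for WARS1 and FARSA held without any 1 library. Those of HARS2, CARS1 and SARS1 were lost without control ES replicate 2 (adjusted p 0.0927, 0.144 and 0.111) or FDX1-OE ES replicate 1 (0.0888, 0.130 and 0.0669). Each of the 5 smaller falls was lost without FDX1-OE ES replicate 1 (adjusted p 0.129 to 0.232), and without control ES replicate 2 (0.0777 to 0.290), among other single libraries.

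Whether the responses differed was tested by the interaction, in which the ES response of the control cells is subtracted from the response seen with FDX1-OE. Of all genes 4.3% passed, 3.25% higher and 1.05% lower. Of the cytosolic synthetases 2 of 20 passed, WARS1 and FARSA. WARS1 rose more in FDX1-OE cells, by 0.61 on the log2 scale (1.53-fold, SE 0.08, adjusted p = 0.0042), and passed with every library left out in turn. FARSA fell further in FDX1-OE cells, with a difference of -0.36 (0.781-fold, SE 0.07, adjusted p = 0.0168). Its call was lost without control DMSO replicate 1 (0.0645), FDX1-OE DMSO replicate 1 (0.0682) or 2 (0.0628), control ES replicate 2 (0.0565) or FDX1-OE ES replicate 1 (0.0519).

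CARS1 (0.34, adjusted p = 0.0729) and SARS1 (-0.26, adjusted p = 0.0694) missed the threshold. Of the 17 mitochondrial genes 0 passed with limma, 0 had an unadjusted p below 0.05 and voom called 0. Of the 20 cytosolic genes 7 had an unadjusted limma p below 0.05, beside 2173 of all 9805 genes. Between the 2 cell types the ES responses of the mitochondrial synthetases were therefore not shown to differ, HARS2 included (0.22, adjusted p = 0.254).

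Other genes of tRNA charging and early translation were read from a list of 27, of which 26 were tested. With ES 4 rose and 7 fell in control cells, and 7 rose and 7 fell in FDX1-OE cells. That is 42.3% and 53.8% of them, near the 38.4% and 56.2% of all genes, and with RLE scaling the split was 4 and 9 in control cells and 4 and 11 in FDX1-OE cells. Between FDX1-OE and control cells 0 passed in DMSO and 1, DTD1, in ES (-0.28, adjusted p = 0.0133). DTD1 removes D-amino acids from tRNA. In the interaction 0 passed.

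Of the scaffold proteins of the multisynthetase complex, EEF1E1 (AIMP3) fell to 0.730-fold in control cells (adjusted p = 0.00196) and 0.748-fold in FDX1-OE cells (adjusted p = 0.00152). AIMP2 fell to 0.871-fold in FDX1-OE cells (adjusted p = 0.0146), and AIMP1 passed in neither. Elongation factors carry charged tRNA to the ribosome or move it along. Of the 8 tested, 0 rose and 4 fell in control cells, and 0 rose and 3 fell in FDX1-OE cells. Of all genes, 38.4% passed in control cells and 56.2% in FDX1-OE cells. The 4 in control cells were EEF1A1 (adjusted p = 0.0497), EEF2 (0.0120) and the mitochondrial factors TSFM (0.00326) and TUFM (0.0391). EEF1A1 and EEF2 did not pass in FDX1-OE cells (adjusted p = 0.822 and 0.158). The 3 in FDX1-OE cells were the mitochondrial factors TUFM (0.825-fold, adjusted p = 0.000506), TSFM (0.782-fold, adjusted p = 0.000832) and GFM1 (0.907-fold, adjusted p = 0.0498).

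Of the 3 mitochondrial initiation genes 2 rose in both cell types, and of the 3 amidotransferase genes 0 rose in control cells and 2 in FDX1-OE cells. Of all genes, 25.5% rose in control cells and 37.0% in FDX1-OE cells. The initiation factors MTIF3 and MTIF2 were 1.47-fold and 1.31-fold higher in control cells (adjusted p = 0.000552 and 0.000787) and 1.42-fold and 1.28-fold higher in FDX1-OE cells (adjusted p = 0.000383 and 0.000538). GATB and GATC, subunits of the amidotransferase that completes mitochondrial glutaminyl-tRNA, were 1.32-fold and 1.14-fold higher in FDX1-OE cells (adjusted p = 0.000509 and 0.0273). MTFMT, which formylates the initiator tRNA, had changes of -0.17 and -0.04, and QRSL1, the third subunit of the amidotransferase, 0.05 and -0.01, in control and FDX1-OE cells, and neither passed. PSTK, a kinase on the route to selenocysteinyl-tRNA, was 1.48-fold higher in control cells (adjusted p = 0.0145) and 1.62-fold higher in FDX1-OE cells (adjusted p = 0.00302). GCN1, which works with the sensor kinase of uncharged tRNA, fell to 0.816-fold and 0.844-fold (adjusted p = 0.0120 and 0.0184). EIF2AK4, that kinase, passed in neither cell type.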

How the data were processed

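RNA-seq values for 8 libraries were used. The authors deposited FPKM, a unit read from the values because the file headers name only the library. HISAT2, HTSeq, R 3.2.0 and the build hg19 are named in the submitters' processing notes, while their roles, the annotation and the strandedness of counting were not given in the sources used here. FPKM steps gave whole reads for 100% of values within 0.02 read, which gave the total of reads behind the FPKM of each library. Replicates are not labelled as separate cultures, so the spread behind each p-value is that of these libraries and may be technical.

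Values were taken as log2(FPKM + 1), which understates the change of low genes, and tested in R 4.3.3 by limma 3.58.1. The 4 group means were fitted to all 8 libraries (4 residual and 6.6 prior degrees of freedom) with a mean trend, two-sided, with Benjamini-Hochberg adjustment. The members, lists and motifs were chosen with earlier results of these data known.

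Values in every library were given for the 6 largest rises and 4 largest falls called in each ES comparison, members called in the interaction, both enzymes of the pair with the largest rise in each compartment, and the highest and lowest member. AARS1, FARSB, HARS1 and KARS1 were added after their values were seen, AARS1 and HARS1 in every library and FARSB and KARS1 in some libraries only. Overlaps of exons and named pseudogenes came from GENCODE 29. Alternatives were RLE scaling, a pseudocount of 0.1, no filter, a fit to the 4 libraries compared, a replicate block, voom weights on recovered reads (chosen after the data were seen) and leaving out each library. The fit was tested on simulated data. Some members enter the counts and sums and are not reported here by name.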

Additional observations from a re-analysis of the deposited data

Results flagged for a closer look

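The ES response of 2 synthetases differed between FDX1-OE and control cells by the test of the interaction (limma, Benjamini-Hochberg adjustment over 9805 genes). For WARS1 the ES response was 0.61 higher on the log2 scale in FDX1-OE cells (adjusted p = 0.0042). For FARSA it was -0.36, a further fall in FDX1-OE cells (adjusted p = 0.0168). Of the 8 fits that left out 1 library, 0 lost the WARS1 call and 5 lost that of FARSA, with adjusted p up to 0.0682 without FDX1-OE DMSO replicate 1. In both genes the ES libraries of each cell type lay on 1 side of its DMSO libraries. The summed level of the 6 myeloid markers was highest in the same group, at 36.7 to 39.7 FPKM in FDX1-OE ES against 12.3 to 16.5 in control ES, carried by CD68 and FCER1G, with CD14, LYZ, CSF1R and ITGAM at group means of 0.190 FPKM or less, and their part in these results was not tested.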

How the results depend on the processing

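Of 48 calls of synthetases over the 5 comparisons, 22 were lost under at least 1 alternative and 0 reversed. RLE scaling lost 6, no filter 6, the fit to the 4 libraries compared 5, voom weights 2 and a pseudocount of 0.1 lost 1. In the fit to the 4 libraries compared, the cytosolic genes called between FDX1-OE and control cells in ES numbered 4 in place of 9. The cause was not tested. Leaving out each library gave 6 to 8 cytosolic calls with ES in control cells, 10 to 14 in FDX1-OE cells, 0 between cell types in DMSO, 2 to 7 in ES and 1 to 3 in the interaction. The mitochondrial counts were 3 to 7, 7 to 8, 0, 0 to 1 and 0. The lowest values came without control ES replicate 2 or FDX1-OE ES replicate 1 for the cell types in ES, and without control DMSO replicate 1 or control ES replicate 1 for the mitochondrial 3. Such a fit leaves 1 group with a lone library, assumed to vary like the others. With the replicate block, the counts were 7, 14, 0, 7 and 2 cytosolic and 8, 9, 0, 1 and 0 mitochondrial, and the block lost the RARS1 (adjusted p = 0.0540) and VARS1 (0.0502) calls between cell types in ES. Same-numbered libraries did not deviate together (r from -0.18 to 0.18 over the 6 pairs of groups), so the numbers were not taken to pair them. Over all genes, the interaction called 422, against 222 with a pseudocount of 0.1, 176 without a filter and 639 with voom, and FDX1-OE against control cells in DMSO called 50, against 2 without a filter and 82 with voom. The edgeR count test planned for recovered reads was not run. TARS3, under the filter, has no call.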
